A study of Mus musculus with 8 samples.

Results

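The loss of Hif-p4h-1 in mouse embryonic fibroblasts kept in normoxia was examined by setting 2 arrays of knockout cells (KO) against 2 arrays of wild-type cells (WT), out of 8 arrays in the series. The 4 arrays were chosen by their titles, which give the genotype, the oxygen condition and, for 1 array of each group, a second set. Differences were taken within each set. The knockout cells were Hif-p4h-1-/- and the wild-type cells Hif-p4h-1+/+. Both came from mouse lines of strain C57BL6/J, as fibroblasts of E14.5 embryos, and neither was given a further treatment in the labels. The other 4 arrays hold the same genotypes in hypoxia, 2 of KO and 2 of WT, and they enter the common estimate of the spread. The sources used here give neither the structure of the knockout allele nor the number of embryos behind a culture nor the oxygen levels. The labels do not say whether the 2 sets are separate embryos or cultures. The p-values therefore reflect array-to-array spread only, and that spread may be technical. No term of the fit covers a genotype difference that varies from set to set.

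Hif-p4h-1, also called PHD1, is the protein encoded by Egln2. It is one of the prolyl hydroxylases that, when oxygen is present, hydroxylate the alpha subunits of the hypoxia-inducible factor (HIF), so that the von Hippel-Lindau protein can bind them and they are degraded. Stabilised alpha subunits pair with ARNT and raise transcription of genes for glucose uptake, glycolysis, lactate export, mitophagy and angiogenesis. Hif-p4h-2 (Egln1) is known as the main oxygen sensor among these enzymes in most cells, and Hif-p4h-1 and Hif-p4h-3 (Egln3) act beside it.

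Of 18193 genes with a probe set of 1 symbol, 13647 were tested with limma on log2 values, on which a difference of 1 is a 2-fold difference in level. The median log2 value over these genes lay between 7.68 and 7.75 on the 4 normoxic arrays. All 16 fibroblast markers looked at were measured, with levels from 6.09 to 14.56 and a median of 11.95. With a Benjamini-Hochberg adjusted p under 0.05 as the threshold, 5 genes were called, which is 0.0366% of those tested: Bnip3 rose in the KO cells, and Egln2, Lyz1, Lyz2 and Pf4 fell (0.00733% higher and 0.0293% lower). At an unadjusted p under 0.05 there were 914 genes, or 6.7%. Without the set as a term limma called 0 genes, with 143 at an unadjusted p under 0.05. The WT array of the first set stood apart from the other 3 normoxic arrays in transcripts of skeletal muscle. In part it also did so in those of macrophages, the interferon response and nerve and glia. With 1.5-fold taken as a log2 difference of 0.58, 18 genes (0.132%) were at least 1.5-fold higher in KO in both sets and 42 genes (0.308%) at least 1.5-fold lower. None was 2-fold higher in both sets, while 15 (0.11%) were 2-fold lower in both.

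**Figure D1:**
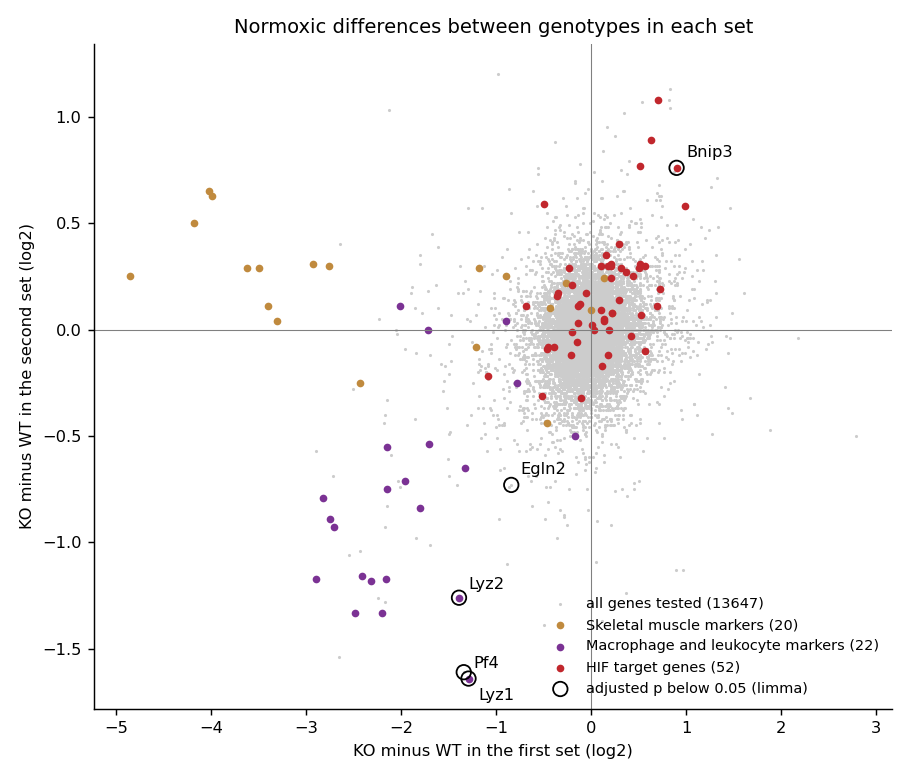
Each point is a gene, with its KO minus WT difference (log2) in the first set on the horizontal axis and in the second set on the vertical axis. Circled genes passed the adjusted p. Macrophage markers lie at the lower left, HIF target genes reach into the upper right, and skeletal muscle markers run to the far left in the first set only, where the lowest is Myh3 at -4.85 against 0.25 in the second set.

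The 2 sets did not carry the same amount of difference. The standard deviation over genes of the KO minus WT difference was 0.332 in the first set against 0.177 in the second. In the first set 364 genes (2.67%) were at least 1.5-fold higher and 419 (3.07%) lower, and in the second set 53 (0.388%) were higher and 90 (0.659%) lower. Across genes, which are not independent replicates, the 2 sets' differences had a Pearson correlation of 0.185. Normoxic and hypoxic differences of the same set correlated more closely. For the first set the value was 0.632, while the second had 0.325. Genotype differences were thus partly shared by the arrays of a set, and hypoxic arrays are no independent repeat of the normoxic ones. Of 13647 genes, 2953 (21.6%) were higher in KO in both sets and 4272 (31.3%) lower in both. Only 8 genes (0.0586%) passed 1.5-fold in opposite directions, among them Mylpf, a myosin light chain gene of fast muscle, with -3.99 and 0.63.

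Egln2, the targeted gene, had levels of 8.0 and 8.34 in KO and of 8.84 and 9.07 in WT, with the array of the first set given before that of the second here and throughout. Both KO arrays lay below both WT arrays. The within-set differences were -0.84 and -0.73, or 1.72-fold lower in KO (log2 difference -0.785 ± 0.089, SE of the fit, adjusted p = 0.0489 with limma, and 0.0522 once arrays were centred on their medians). A transcript signal thus remained in the KO arrays, and the position of the single Egln2 probe set relative to the deleted part is unknown here. In hypoxia the Egln2 levels were 8.66 and 8.85 in KO and 8.95 and 9.13 in WT, with differences of -0.29 and -0.28.

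The other enzymes and subunits of the pathway did not pass the test in normoxia. Egln1, the enzyme of Hif-p4h-2, had levels of 9.51 and 9.85 in KO and 9.63 and 9.73 in WT. Egln3, the enzyme of Hif-p4h-3, had 7.23 and 7.15 in KO and 7.73 and 6.56 in WT, so that its differences of -0.50 and 0.59 pointed in opposite directions. A dimmer Egln3 probe set gave 0.04 and -0.49. Egln1 and Egln3 are themselves HIF targets. Hif1a, the ubiquitous alpha subunit, differed by -0.07 and -0.01, from levels of 11.79 and 12.25 in KO. Epas1, the HIF-2 alpha subunit, had 8.17 and 8.77 in KO and 7.50 and 8.77 in WT, a difference of 0.67 in the first set against 0.00 in the second. Hif3a, Arnt and Arnt2 had fitted differences between -0.105 and 0.105 on the probe sets tested. Dimmer Hif3a probe sets disagreed, with -0.38 and -0.39 in one and 0.18 and 0.44 in another. Vhl, Hif1an, the asparaginyl hydroxylase gene, and P4htm, a transmembrane prolyl hydroxylase gene, had fitted differences of -0.035, -0.065 and 0.05. Neither a shift in the alpha subunit proteins nor one in their hydroxylation would be visible in RNA levels.

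Of the tested HIF target genes 27 stood higher and 9 lower in the KO cells in both sets, and 1 passed the test. Bnip3, which encodes a mitophagy receptor of the outer mitochondrial membrane, had levels of 9.76 and 10.11 in KO and of 8.86 and 9.35 in WT. It rose by 0.90 and 0.76 in the sets, or 1.78-fold (0.83 ± 0.085, SE, adjusted p = 0.0273 with limma). Of the 52 tested HIF target genes it was the only one called, a share to be read against 0.00733% of all genes called higher. At an unadjusted p under 0.05, 18 of the 52 were higher and 2 lower, where 2.82% and 3.88% of all genes were. The 27 genes higher in both sets are 51.9% of the 52, against 21.6% of all genes, and the 9 lower in both are 17.3%, against 31.3%. In 14 of the 52, both KO arrays lay above both WT arrays, against 6.33% of all genes. The median difference over the list was 0.15 in the first set against 0.13 in the second, beside medians of -0.04 and -0.01 over all genes tested. The median of the fitted differences was 0.095, and it was 0.153 without the WT array of the first set and 0.179 without the KO array of the second. The list has textbook HIF targets and was drawn up with earlier results of these data known.

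The promoter sequences of the 5 members of the HIF target and glycolysis lists that were at least 1.5-fold higher in KO in both sets are shown, because HIF binds DNA at a short core motif. Each run holds the 250 bases before the transcription start in RefSeq, build GRCm38.p6, written 5′ to 3′ on the strand of the gene. Capitals mark the letters ACGTG or GCGTG on either strand, which are the known HIF core. For Pdk1 the first of its listed start sites is shown. The window of its other listed start site, chr2:71874654-71874903, held 0 matches.
Bnip3, chr7:138909507-138909756, minus strand: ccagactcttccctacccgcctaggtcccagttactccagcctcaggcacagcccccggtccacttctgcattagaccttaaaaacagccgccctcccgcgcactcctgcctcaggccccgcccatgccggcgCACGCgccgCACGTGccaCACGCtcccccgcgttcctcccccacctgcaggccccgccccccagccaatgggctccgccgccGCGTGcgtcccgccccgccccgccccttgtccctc
Pdk1, chr2:71872974-71873223, plus strand: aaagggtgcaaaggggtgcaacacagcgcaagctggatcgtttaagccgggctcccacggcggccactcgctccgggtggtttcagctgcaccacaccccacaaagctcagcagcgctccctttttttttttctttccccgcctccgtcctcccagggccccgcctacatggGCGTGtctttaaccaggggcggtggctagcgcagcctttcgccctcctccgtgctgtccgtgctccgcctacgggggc
Ankrd37, chr8:45999851-46000100, minus strand: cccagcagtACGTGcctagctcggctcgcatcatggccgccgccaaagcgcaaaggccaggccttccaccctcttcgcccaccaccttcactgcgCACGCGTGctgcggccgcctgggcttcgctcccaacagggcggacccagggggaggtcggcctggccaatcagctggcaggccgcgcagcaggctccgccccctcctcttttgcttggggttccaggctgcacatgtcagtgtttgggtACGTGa
Slc16a3, chr11:120948817-120949066, plus strand: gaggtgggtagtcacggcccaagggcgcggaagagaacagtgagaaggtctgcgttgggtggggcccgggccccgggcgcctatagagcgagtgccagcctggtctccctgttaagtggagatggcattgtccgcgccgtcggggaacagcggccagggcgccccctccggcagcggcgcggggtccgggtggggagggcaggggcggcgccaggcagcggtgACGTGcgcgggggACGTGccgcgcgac
Pfkl, chr10:78009808-78010057, minus strand: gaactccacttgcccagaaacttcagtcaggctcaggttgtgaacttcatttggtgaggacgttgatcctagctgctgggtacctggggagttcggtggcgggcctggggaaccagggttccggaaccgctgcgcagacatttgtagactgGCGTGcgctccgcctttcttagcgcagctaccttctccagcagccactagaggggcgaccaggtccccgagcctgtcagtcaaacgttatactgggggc
Of the windows shown, Bnip3 held 5 matches, Ankrd37 4, Slc16a3 2, and Pdk1 and Pfkl 1 each. Overlapping matches were counted separately, as in the CACGTG of Bnip3. Of the 32851 windows of the same length in the RefSeq table, 38.6% held at least 1 match, so the motif alone is common. Of the 59 windows of the 43 tested HIF target genes found in that table, 74.6% did. That share covers a list of textbook HIF targets whatever their difference, so it says nothing about KO against WT. A match is a run of letters and does not show that HIF binds there in these cells.

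Pdk1, whose kinase shuts pyruvate out of the citric acid cycle, had levels of 7.90 and 7.83 in KO and 7.27 and 6.94 in WT. Both KO arrays lay above both WT arrays, with differences of 0.63 and 0.89, and the adjusted p of 0.0524 (limma) missed the threshold. A further pair of Pdk1 probe sets with levels above the filter gave differences of 0.39 and 0.80 and of 1.09 and 0.65. Ankrd37, an ankyrin repeat gene widely used as a hypoxia marker, had 5.90 and 6.07 in KO and 4.91 and 5.49 in WT. Its differences were 0.99 and 0.58, so that in the second set it lay right at the 1.5-fold threshold. Slc16a3, which encodes the lactate exporter MCT4, had low levels of 5.20 and 5.07 in KO and 4.50 and 3.99 in WT. In these genes too the groups did not overlap, and the adjusted p values were 0.217 and 0.325 with limma. P4ha1, a collagen prolyl hydroxylase subunit gene, differed by 0.51 and 0.31 with an adjusted p of 0.212. Ak4, a mitochondrial adenylate kinase gene, had differences of 0.51 and 0.77. Cited2, a feedback inhibitor of HIF, had 0.37 and 0.27. Kdm3a, a histone demethylase gene, had 0.21 and 0.30, and Wsb1, a ubiquitin ligase component gene, had 0.21 and 0.31. Vegfa, the angiogenic growth factor gene, differed by 0.44 and 0.25 with levels of 8.07 and 9.50 in KO and 7.63 and 9.25 in WT, so that its set mattered more than its genotype.

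Differences of glycolysis enzymes and transporters were mostly positive and small. Of 15 tested genes, 9 (60.0%) were higher in KO in both sets, against 21.6% of all genes, and 1 was lower. None was called, and 7 were higher at an unadjusted p under 0.05, where 2.82% of all genes were. Pfkl, a phosphofructokinase gene, had levels of 7.28 and 7.77 in KO and 6.59 and 7.13 in WT, and its differences of 0.69 and 0.64 had an adjusted p of 0.134 (limma). The other Pfkl probe sets gave 0.20 and 0.26 and 0.50 and 0.28. Ldha, the lactate dehydrogenase gene, had 12.81 and 12.88 in KO and 12.51 and 12.55 in WT, with differences of 0.30 and 0.33. Aldoa, an aldolase gene, differed by 0.25 and 0.37, and Slc2a1, the glucose transporter GLUT1 gene, by 0.16 and 0.35. Pgam1 and Pgk1, enzymes of the lower pathway, differed by 0.19 and 0.15 and by 0.11 and 0.21. The hexokinase gene Hk1 gave 0.12 and 0.09, and Eno2, an enolase gene, gave -0.54 and -0.03.

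Some HIF targets pointed the other way or nowhere. Ppp1r3c, a glycogen-targeting phosphatase subunit gene, had levels of 4.42 and 4.80 in KO and 5.50 and 5.02 in WT, with differences of -1.08 and -0.22. Selenbp1, a selenium-binding protein gene, differed by -0.52 and -0.31. Car9, the membrane carbonic anhydrase gene that serves as a hypoxia marker, had low levels of 3.96 and 4.02 in KO and 3.78 and 4.14 in WT. At such levels the lack of a clear Car9 difference says little. Ddit4, a stress-induced inhibitor of mTOR, differed by -0.15 and -0.06.

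**Figure D2:**
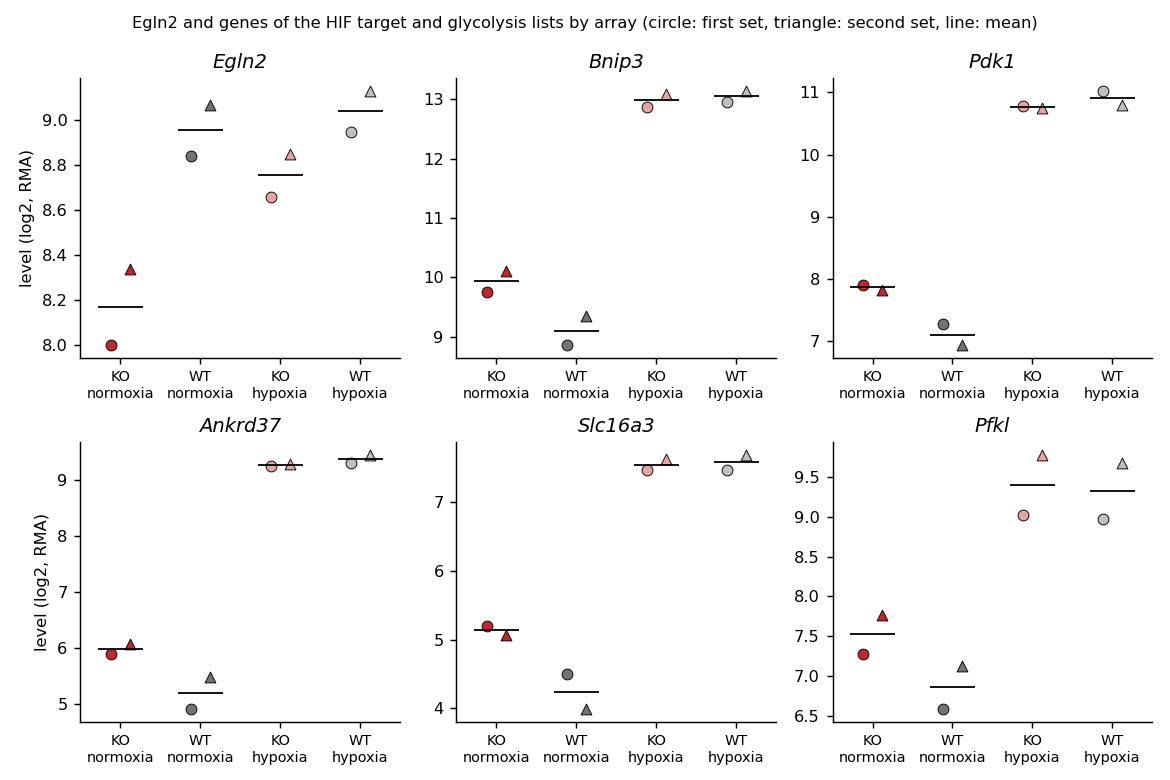
Level (log2) on each array for Egln2 and the 5 genes whose promoters are shown, with KO left of WT for normoxia and for hypoxia. Circles are the first set, triangles the second, and lines the mean of 2 arrays. For Bnip3 the normoxic KO arrays at 9.76 and 10.11 lie above the WT arrays at 8.86 and 9.35, and all hypoxic arrays lie between 12.87 and 13.14.

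The hypoxic arrays of the same genotypes gave a scale for these differences. Bnip3 had 12.87 and 13.10 in hypoxic KO cells and 12.96 and 13.14 in hypoxic WT cells, with KO minus WT of -0.09 and -0.04. Its normoxic KO level was thus nearer to normoxic WT than to either hypoxic group. Pdk1 had 10.78 and 10.75 in hypoxic KO and 11.02 and 10.79 in hypoxic WT, with differences of -0.24 and -0.04. Slc16a3, Ankrd37 and Pfkl differed by at most 0.16 in size between the hypoxic genotypes of either set. Over the 52 HIF target genes, the median hypoxic difference was -0.11 in the first set against -0.06 in the second. The test of the change in difference, the genotype by oxygen interaction, called none of 13647 genes (0%), with 330 genes (2.42%) at an unadjusted p under 0.05 and 0.826 as the smallest adjusted p. Bnip3 had that adjusted p, from an unadjusted p of 6.1e-05. Of the 52 HIF target genes, 15 had an unadjusted p under 0.05 in the interaction, and in all 15 the hypoxic difference was the lower one, a direction that 1.15% of all genes took at that threshold.

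**Figure D3:**
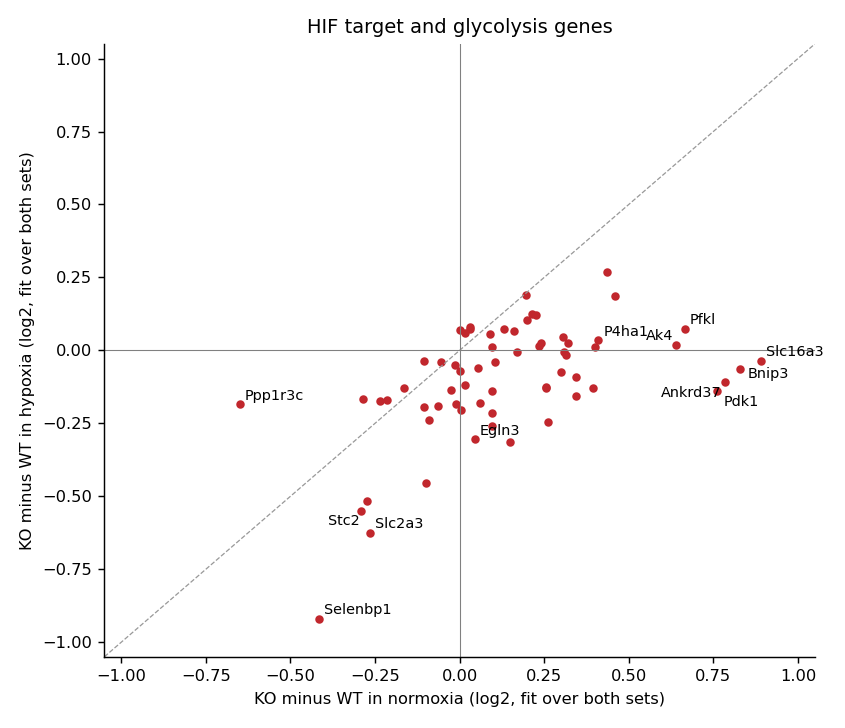
Each point is 1 of the 65 tested genes of the HIF target and glycolysis lists, with its fitted KO minus WT difference in normoxia on the horizontal axis and in hypoxia on the vertical axis (log2). The dashed line marks equal differences. Bnip3, Pdk1, Ankrd37, Slc16a3 and Pfkl lie at the right near a hypoxic difference of 0, from -0.14 for Pdk1 to 0.075 for Pfkl.

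Transcripts of macrophages and other leukocytes were lower in the KO cultures, and this was the largest shift of any list in which both sets pointed the same way. Lyz1 and Lyz2 encode lysozyme, and Pf4 encodes platelet factor 4, which macrophages also make. Lyz1 had levels of 9.57 and 7.97 in KO and 10.86 and 9.61 in WT. It fell by 1.29 in the first set and it fell by 1.64 in the other, and was 2.76-fold lower in KO (adjusted p = 0.00472 with limma). Lyz2 had 8.77 and 7.64 in KO and 10.16 and 8.90 in WT, and was 2.51-fold lower (adjusted p = 0.0049). The pair are near-identical copies, so the split between them is uncertain and they may count as 1 finding. Pf4 had 7.58 and 6.03 in KO and 8.92 and 7.64 in WT, and was 2.78-fold lower (adjusted p = 0.0124). In all 3 genes both KO arrays lay below both WT arrays.

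Of 25 measured macrophage and leukocyte markers, 22 were tested. The filter took the mean over all 8 arrays, so high WT levels alone could carry a marker past it. The counts that follow are therefore a description of the tested markers only. Of the 22, 19 (86.4%) were lower in KO in both sets, against 31.3% of all genes. The other 3 were lower in the first set only. In 15 of the 22 the difference passed 1.5-fold in both sets, and these make up 35.7% of the 42 genes that did so. In 18 of the 22, both KO arrays lay below both WT arrays, against 10.5% of all genes. Only Lyz1 and Lyz2 of the list were called. Tyrobp, a signalling adaptor of myeloid cells, had levels of 5.87 and 5.24 in KO and 8.35 and 6.57 in WT. Csf1r, the receptor that macrophages need to survive, had 8.04 and 7.32 in KO and 9.84 and 8.16 in WT, and C1qa, a complement subunit gene, had 5.80 and 5.06 in KO and 7.96 and 6.23 in WT. Their adjusted p values were 0.123, 0.131 and 0.134 with limma. Ptprc, the pan-leukocyte antigen CD45, differed by -2.32 and -1.18, and the scavenger receptor gene Msr1 by -2.20 and -1.33. Cx3cr1 had 4.41 and 4.66 in KO and 6.42 and 4.55 in WT, so that the WT array of the first set alone stood high. Adgre1, a macrophage surface receptor gene, showed this pattern as well, with 4.62 and 4.41 in KO and 6.34 and 4.41 in WT.

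The summed linear level of the measured macrophage markers was 2529 and 1527 in KO and 8279 and 3131 in WT. RMA values have no zero, so no marker can be called absent. Among the 22 tested markers the lowest level in a KO array was that of Mrc1, the mannose receptor gene, at 3.66, and of the 3 markers below the filter Itgam, the CD11b integrin gene, had 2.87 and 3.25 in KO and 3.98 and 3.35 in WT. The list's median difference was -2.08 in the first set against -0.815 in the second, and in hypoxia it was -1.63 and -0.74. Because genotype differences were partly shared by the arrays of a set, the hypoxic medians are no independent check. The median of the fitted differences was -1.40, and -1.06 without the WT array of the first set. Arrays of whole cultures cannot tell fewer cells of a type from less RNA per cell. The labels name no step that removes leukocytes from a culture of embryo cells. Among the 10 lowest genes by the smaller of the 2 differences, Gpm6a, a neuronal membrane glycoprotein gene, led with 4.02 and 3.69 in KO and 6.67 and 5.23 in WT. Its KO levels were low, so high WT levels alone could have carried Gpm6a past the filter and into this ranking. The other Gpm6a probe set gave smaller differences of -0.34 and -0.85. Fermt3, the integrin activator of blood cells, differed by -2.24 and -1.26, and Ms4a6d, which myeloid cells express, by -2.17 and -1.28. Both had an adjusted p of 0.0524, while the other Fermt3 probe sets gave differences between -0.55 and 0.02.

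**Figure D4:**
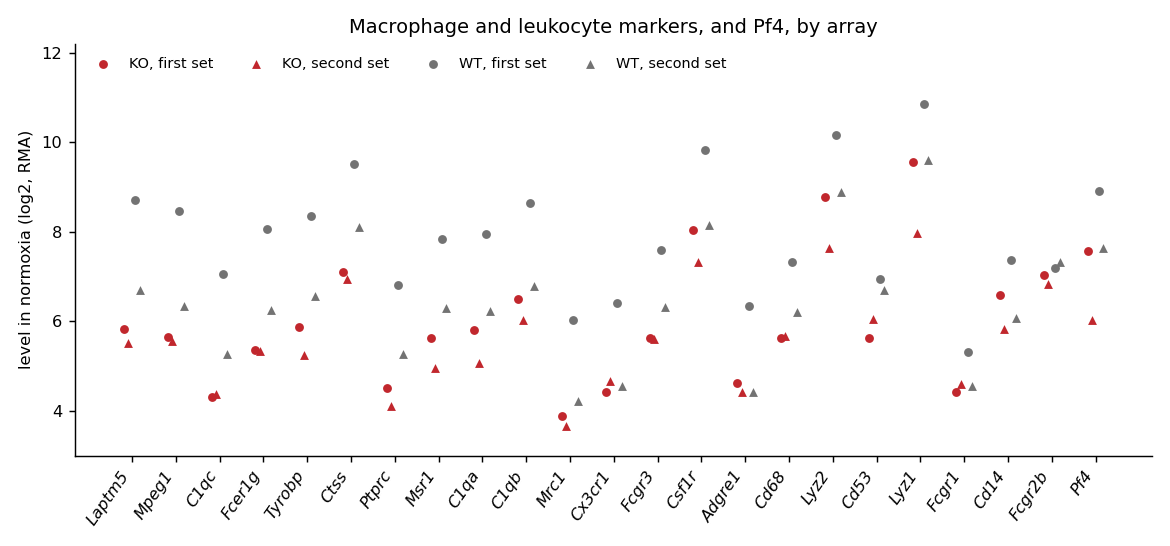
Level (log2) in normoxia of the 22 tested macrophage and leukocyte markers and of Pf4, sorted by the difference in the first set, with KO left of WT for each gene. Circles are the first set and triangles the second. The WT array of the first set is the highest for nearly every gene, for example 8.72 for Laptm5 against 6.69 in the WT array of the second set and 5.83 and 5.52 in KO.

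Interferon response genes were lower in KO mainly against the WT array of the first set. The median levels of the list were 5.80 and 5.41 in KO and 7.10 and 5.46 in WT. Of 37 measured genes, 30 were tested. The filter took the mean over all 8 arrays, so high WT levels alone could carry a gene past it. Of the 30, 19 (63.3%) were lower in KO in both sets, against 31.3% of all genes, and none higher. At an unadjusted p under 0.05, 12 were lower, against 3.88% of all genes. None was called. The median difference was -0.55 in the first set against -0.11 in the second, beside -2.08 and -0.815 for the macrophage list, whose part in this was not tested. In hypoxia the interferon list had medians of -0.125 and 0.005. Usp18, an inhibitor of interferon signalling, had low levels of 4.03 and 3.77 in KO and 5.44 and 4.50 in WT. Irf7, another gene of the list, fell below the filter with 4.31 and 4.08 in KO. The Usp18 differences were -1.41 and -0.73 in normoxia and 0.10 and 0.47 in hypoxia. Xaf1 differed by -0.99 and -0.51, Psmb8, an immunoproteasome subunit gene, by -0.57 and -0.56, and Trim30a by -0.66 and -0.69. Of 34 tested NF-kB target genes, 10 (29.4%) were lower in both sets and 5 (14.7%) higher. Of all genes, 31.3% were lower and 21.6% higher. Cxcl10, a chemokine gene, had 8.15 and 4.80 in KO and 9.11 and 5.46 in WT. Ptgs2, the inducible cyclooxygenase gene, had 12.76 and 13.11 in KO and 12.15 and 12.90 in WT.

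Of the 18 genes at least 1.5-fold higher in KO in both sets only Bnip3 was called, and Eya1, Sorbs2 and Lhx9 had the largest of the smaller differences. Eya1, a transcription coactivator of organ formation, had levels of 7.88 and 7.45 in KO and 7.05 and 6.32 in WT, a 1.97-fold difference (adjusted p = 0.0524 with limma). Its other probe sets, which are dimmer, gave 0.23 and 0.15 and 0.39 and -0.03, and the mean over probe sets differed by 0.45 in place of 0.98. Sorbs2, an adaptor protein gene of the actin cytoskeleton, had 8.85 and 9.08 in KO and 8.02 and 8.04 in WT. The 3 dimmer Sorbs2 probe sets disagreed in direction, with -0.51 and -0.30 in one, and the mean over probe sets differed by 0.20 in place of 0.94. Lhx9, a LIM homeobox gene of limb and gonad, had 8.47 and 6.56 in KO and 7.65 and 5.48 in WT, where the sets lay further apart than the genotypes. Col2a1, the cartilage collagen gene, differed by 0.87 and 0.74 with an adjusted p of 0.0524. Ampd3, an AMP deaminase gene, differed by 1.33 and 0.71, P2ry10b by 0.71 and 0.68, and Selp, the P-selectin gene, by 1.26 and 0.67. Unlike the HIF target genes, Eya1, Sorbs2, Lhx9 and Col2a1 also stood higher in hypoxic KO cells. Their differences there were, in that order, 0.46 and 0.70, 0.45 and 0.82, 0.59 and 0.83, and 0.66 and 0.70. No test of that contrast between the groups of genes was made, and the hypoxic arrays are no independent repeat of the normoxic ones. Of 56 tested Hox and limb patterning genes, 18 (32.1%) were higher and 16 (28.6%) lower in both sets, with a median of 0.015. Of all genes, 21.6% were higher and 31.3% lower. Foxc1, a forkhead gene of mesenchyme, differed by 0.74 and 0.38, and Hoxc10 by -0.28 and -0.51.

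Fibroblast and matrix genes went in both directions. Pdgfra, the receptor that marks mesenchymal fibroblasts, had levels of 8.97 and 8.14 in KO and 9.83 and 8.88 in WT. Within each set KO was lower, by -0.86 and -0.74, with an adjusted p of 0.0524 (limma), and other Pdgfra probe sets gave -0.46 and -0.40 and -0.19 and -0.70. Dcn, the gene of the collagen-binding proteoglycan decorin, had 8.51 and 8.99 in KO and 9.27 and 9.56 in WT, with the same adjusted p. Of the 16 fibroblast markers 8 were lower and 4 higher in both sets, with a median of -0.16. Col3a1, a major fibrillar collagen gene, differed by -0.19 and -0.33, and Fap, a protease of activated fibroblasts, by -1.24 and -0.25. Of 42 tested collagen and matrix genes, 12 (28.6%) were higher and 12 (28.6%) lower in both sets, against 21.6% and 31.3% of all genes. Fbn2, a microfibril gene, differed by -0.34 and -0.44, and Ogn, a small proteoglycan gene, by 0.47 and 0.50. Tgfbr3, a co-receptor for TGF-beta, differed by -0.43 and -0.74, Tgfb1 by -0.65 and -0.29 and Tgfb2 by 0.54 and 0.31. Adamts5, a proteoglycan-degrading protease gene, differed by 0.99 and 0.29, and Plat, the tissue plasminogen activator gene, by -0.54 and -0.26. Bmp4, a signal of mesenchyme patterning, differed by 0.80 and 0.49, and Igfbp2, which binds insulin-like growth factors, by 1.24 and 0.47.

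Cell cycle transcripts were slightly lower in KO in normoxia. Of 48 tested G2/M and mitosis genes, 40 (83.3%) were lower in both sets, against 31.3% of all genes, none was higher in both, and none was called. The median difference was -0.2 in the first set against -0.145 in the second, while in hypoxia it was -0.105 and 0.1. Top2a, a topoisomerase of dividing cells, had levels of 11.98 and 10.79 in KO and 12.27 and 11.04 in WT. These levels show that the sets differed by more than 1 log2 unit in either genotype, so the genotype difference of -0.29 and -0.25 is seen only within a set. The kinase gene Nek2 differed by -0.33 and -0.25, Ncapg2, a condensin subunit gene, by -0.27 and -0.15, and Cdca8, of the chromosomal passenger complex, by -0.46 and -0.14. Of 35 tested S-phase genes, 24 (68.6%) were lower in both sets and 3 higher, with medians of -0.17 and -0.11. Cdt1, a replication licensing factor, differed by -0.43 and -0.14, and Pola1, a DNA polymerase subunit gene, by -0.30 and -0.22. Of 35 tested p53 target genes, 23 (65.7%) were higher in both sets, against 21.6% of all genes, and none was called. Perp, a membrane protein gene of the p53 response, had 9.56 and 7.74 in KO and 8.10 and 7.17 in WT. The death receptor gene Fas differed by 0.80 and 0.43.

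Mitochondrial genes had small differences. Of 35 tested genes of oxidative phosphorylation and the citric acid cycle, 19 (54.3%) were lower and 3 (8.57%) higher in both sets. Of all genes, 31.3% were lower and 21.6% higher. The list had a median of -0.04 and a range from -0.18 to 0.11. Mdh2, malate dehydrogenase, differed by 0.15 and 0.07 and Uqcrfs1, of respiratory complex III, by -0.24 and -0.04. The other Mdh2 probe set, also bright, gave -0.06 and -0.04. Of 19 tested PPAR target and fatty acid oxidation genes, 10 (52.6%) were higher and 3 (15.8%) lower in both sets. Their median was 0.095 and their range from -1.31 to 0.71. At the lower end were Lpl, the lipoprotein lipase gene, with 9.15 and 8.76 in KO and 10.27 and 9.25 in WT, and Cd36, a fatty acid receptor that macrophages also express, with 5.06 and 4.85 in KO and 7.24 and 5.29 in WT. At the upper end, Pparg, the adipocyte nuclear receptor gene, differed by 1.46 and -0.04, and Fabp4, a fatty acid binding protein gene, by 1.44 and -0.11, so that both stood higher in the first set alone. Pdk4, another pyruvate dehydrogenase kinase gene, differed by 0.84 and 0.32. Of 37 tested ATF4 and unfolded protein response genes, 19 (51.4%) were lower and 5 (13.5%) higher in both sets with a median of -0.065. Atf4 itself differed by -0.14 in each set, while another bright Atf4 probe set gave -0.09 and 0.14. Of 27 tested FOXO targets Bnip3 was the only one called, and the median was 0.025. Of 20 cholesterol synthesis genes 10 were lower and 1 higher in both sets. The remaining lists for metabolism, imprinting, growth factors, G1 cyclins, NRF2 genes and matrix proteases had medians between -0.115 and 0.075, with no gene called.

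**Figure D5:**
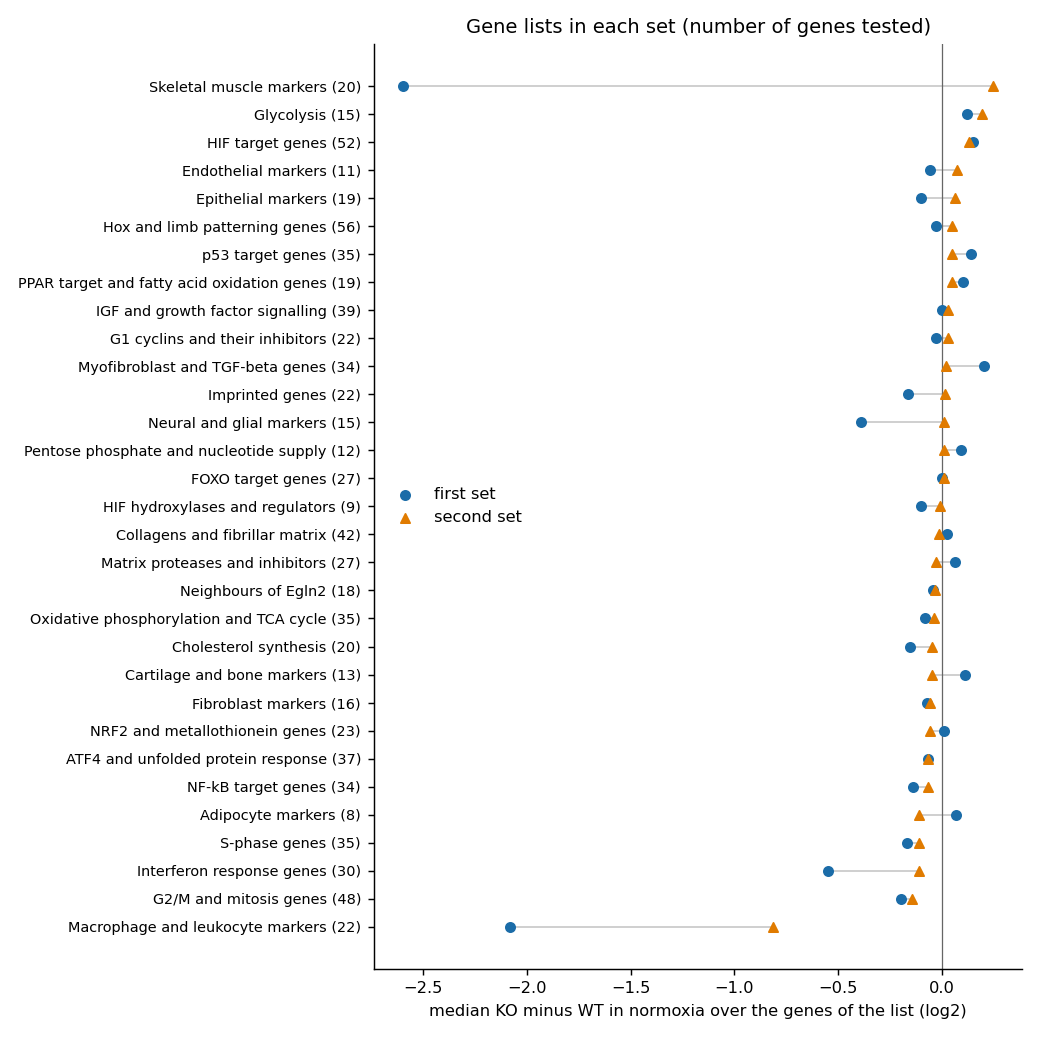
Median KO minus WT difference in normoxia (log2) over the tested genes of each list with at least 8 of them, in the first set (circles) and in the second (triangles), with the number of genes in brackets. The macrophage list lies at -2.08 and -0.815, the HIF target list at 0.15 and 0.13, and the skeletal muscle list at -2.595 and 0.245.

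Skeletal muscle transcripts separated 1 array from the rest. Of 20 tested markers, 3 were lower and 2 higher in KO in both sets. The list's median was -2.595 in the first set against 0.245 in the second. Myh3, the embryonic myosin heavy chain gene, had levels of 3.68 and 3.83 in KO and 8.53 and 3.58 in WT. Myog, the myogenic transcription factor gene, had 3.86 and 3.98 in KO and 8.04 and 3.48 in WT. The WT array of the first set stood alone, and the hypoxic WT array of that set did so too, with Myh3 at 8.35. Epithelial markers went in both directions. Of 19 tested, 7 (36.8%) were higher and 6 (31.6%) lower in KO in both sets, with a median of 0. The keratin genes Krt8 and Krt18 differed by -0.81 and -0.52 and by -1.02 and -0.33. Perp, which is also in this list, had its highest fitted difference, with 1.46 and 0.57 in the sets. The lists for endothelium, cartilage and bone, adipocytes, nerve and glia and erythroid cells had medians between -0.2 and 0.055. Eif2s3y, a gene of the Y chromosome, was well measured on all 4 arrays, at 9.53 and 9.38 in KO and 9.37 and 9.01 in WT.

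Genes beside Egln2 on chromosome 7 were examined because a targeted allele carries its flanking DNA with it. Of the 40 protein-coding neighbours, 20 on each side, 18 were tested, none was called, and the median difference was -0.02. Coq8b, a gene of coenzyme Q synthesis, had levels of 4.99 and 5.96 in KO and 5.30 and 6.53 in WT, and Numbl, a Notch regulator gene, differed by -0.29 and -0.34.

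RNA integrity probes did not separate the genotypes. The log2 signal of the 3′ over the 5′ part of the Actb control was 0.53 and 0.31 in KO and 0.56 and 0.31 in WT, and of the Gapdh control 0.33 and 0.17 in KO and 0.39 and 0.14 in WT. The 5 calls rest on the shared spread of all 8 arrays: with the 4 normoxic arrays alone, or without the set as a term, 0 genes were called, with 706 and 143 at an unadjusted p under 0.05. Without the WT array of the first set Lyz1 alone was called, without the KO array of the second set Laptm5 alone, and without either of the others 0, with 352 genes at an unadjusted p under 0.05 when the KO array of the first set was left out and 1432 when the WT array of the second was. Leaving out any 1 hypoxic array left 3 calls, Lyz1, Lyz2 and Pf4, so the calls of Bnip3 and Egln2 need all 8 arrays.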

How the data were processed

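Fibroblast RNA was measured on 8 one-colour arrays, 2 per genotype and oxygen condition. The authors' deposited values are log2 expression levels per probe set, made with RMA per the submitters' processing notes, where no version is given. RMA puts arrays on a common distribution, so a global shift in RNA content is invisible. For arrays, their number limits the precision.

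Names of probe sets came from GEO's platform annotation. Of the 45037 that are no controls, 34945 had 1 symbol and 34741 found their Entrez identifier in a RefSeq table of GRCm38.p6. For each gene the probe set with the highest mean was taken. A filter at the 25th percentile of these means removed dim genes, and 13647 of 18193 were tested.

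One limma model (limma 3.58.1, R 4.3.3) with group means plus a set term was fitted to all 8 arrays (3 residual degrees of freedom, to which the moderation added 5.22), with a mean-variance trend and Benjamini-Hochberg adjustment over all genes tested. Errors are standard errors of this fit and p-values are two-sided. The script was tested on simulated data. The labels mark a second set, and the second minus first set differences of the groups correlated between 0.710 and 0.851 over the 6 pairs of groups (0.768 between normoxic KO and WT), so differences were paired within sets. Alternatives covered the set term, the arrays used, the filter, the probe sets, the trend and the normalization.

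Named genes follow a rule: pathway genes, called genes, the 10 highest and 10 lowest by the smaller within-set difference, and up to 4 genes of each list with the smallest p. Other named genes were chosen after their values were seen. The members and the 34 gene lists were chosen with earlier results of these data known.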

Additional observations from a re-analysis of the deposited data

Results flagged for a closer look

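The HIF target genes had a positive median KO minus WT difference in both normoxic sets, 0.15 and 0.13, and a negative one in both hypoxic sets, -0.11 and -0.06. This opposite sign marked the list for a closer look. The median change of the difference over the 52 genes, hypoxia minus normoxia, was -0.24 on the log2 scale. The list's difference between oxygen conditions was not tested as a whole.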

How the results depend on the processing

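Against 5 genes called, 0 were called without the set term (no replicate block), with a random block for the set and with the 4 normoxic arrays alone and the set as a replicate block (limma, with 143, 609 and 706 genes at an unadjusted p under 0.05). Without the mean-variance trend 2 were called, with the 50th percentile as filter 11, and with 1 of the 8 arrays left out between 0 and 3; fewer arrays leave fewer residual degrees of freedom, and the other causes were not tested. With 2-fold as the threshold in each set, 0 genes were higher and 15 lower, with the mean over a gene's probe sets 9 and 27, and with the 50th percentile filter 14 lower. The interaction called 0 genes under each of 16 settings, chosen after seeing the data.

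The HIF target median was 0.117 after renewed quantile normalization, 0.11 with arrays centred, and between 0.088 and 0.179 without 1 array. The glycolysis median lay between 0.072 and 0.213, the macrophage median between -1.854 and -1.061, the interferon median between -0.539 and -0.123, the G2/M median between -0.262 and -0.082 and the S-phase median between -0.162 and -0.112 without 1 array. With the mean over probe sets the S-phase median was -0.074 and the G2/M median -0.12. With that mean, small differences of uncalled genes turned sign, to -0.09 for Egln3, 0.024 for Hif1a, 0.014 for Hif3a, -0.068 for Arnt2, 0.027 for Vhl and -0.013 for P4htm. The mean over probe sets, dim ones included, also moved the differences of 19 of the 69 named genes with a fitted size over 0.3 by over 1.5 times, all toward 0, among them Laptm5 (-0.738 in place of -2.03), Msr1 (-0.771, -1.765), Fermt3 (-0.626, -1.75), Csf1r (-0.803, -1.32), Gpm6a (-1.345, -2.095), Dcn (-0.318, -0.665), Ak4 (0.23, 0.64) and Pfkl (0.428, 0.665). The sign of 8 uncalled genes also depended on the array left out, with ranges from -0.568 to 0.658 for Egln3, from -0.165 to 0.835 for Epas1, from -0.087 to 0.017 for Hif3a, from -0.202 to 0.072 for Hif1an, from -0.145 to 0.205 for Car9, from -0.14 to 0.14 for Egln1, from -0.125 to 1.455 for Fabp4 and from -0.012 to 0.112 for P4htm. The cause was not tested.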
